A study of Mus musculus with 24 samples.

Results

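Hmgcs1, Idi1, Fdps, Fdft1 and Sqle, which encode enzymes of cholesterol synthesis, and Srebf2 and Insig1, which control that synthesis, were followed in the medial prefrontal cortex (mPFC) of mice given the antidepressant duloxetine, the gut bacterium *Ruminococcus flavefaciens*, or both. The 7 genes were chosen by name, and all 7 were found among the 15456 genes of the deposited table. All 7 also passed the filter on low values, which left 14974 genes for testing. No gene for the uptake of cholesterol is among the 7, and uptake genes are described as a separate list.

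The 24 samples came from male mice of the strain BALB/C, substrain OlaHsd in the methods, in postnatal week 11, with 1 library per mouse and 6 mice per group. The titles name the groups no treatment (here control), duloxetine, ruminococcus and both together, the treatment notes of the labels give the species as *Ruminococcus flavefaciens*, and according to the methods the controls received phosphate-buffered saline (PBS) by injection and by gavage. Duloxetine, an inhibitor of serotonin and norepinephrine uptake, was injected daily into the peritoneum, and the living bacteria were given by gavage. The reads recovered from the deposited values ranged from 12811413 to 15607343 per mouse, with a median of 13591497 in control, 14536037 in duloxetine, 13943370 in *R. flavefaciens* and 14621655 in duloxetine + *R. flavefaciens* mice.

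Cholesterol does not cross the blood-brain barrier in useful amounts, so the brain makes its own, for myelin, for the membranes of neurons and for synapses. Synthesis starts from acetyl-CoA and passes through mevalonate, isoprenoids, squalene and lanosterol. The transcription factor SREBP2, encoded by Srebf2, switches on the genes of the enzymes when sterols in the endoplasmic reticulum are low. INSIG1 holds the complex of SREBP2 and its escort SCAP in the endoplasmic reticulum when sterols are high, and Insig1 is itself a target of SREBP2.

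SREBP2 binds sterol regulatory elements, usually together with NF-Y, which binds CCAAT boxes, and Sp1, which binds GC boxes. RefSeq promoter windows of GRCm38.p6, from 250 bases before to 50 bases after the gene start that RefSeq gives, were at hand for 4 of the 7 genes, Insig1, Idi1, Hmgcs1 and Srebf2. They were searched on both strands for TCACNCCAC (sterol regulatory element), CCAAT (NF-Y box) and GGGCGG (GC box). The window of Hmgcs1 is shown because it held the sterol regulatory element, and that of Insig1 because Insig1 is the gene with an adjusted call below. Capitals mark the matches, a match on the minus strand being written as its complement, ATTGG or CCGCCC.
Hmgcs1 (chr13:119690101-119690400, plus strand): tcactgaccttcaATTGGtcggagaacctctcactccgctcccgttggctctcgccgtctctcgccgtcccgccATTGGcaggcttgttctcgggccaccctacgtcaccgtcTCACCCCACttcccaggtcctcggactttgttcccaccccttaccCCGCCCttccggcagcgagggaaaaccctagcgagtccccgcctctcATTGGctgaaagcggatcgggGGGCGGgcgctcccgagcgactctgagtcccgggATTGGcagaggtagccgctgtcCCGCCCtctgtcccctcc
Insig1 (chr5:28071162-28071461, plus strand): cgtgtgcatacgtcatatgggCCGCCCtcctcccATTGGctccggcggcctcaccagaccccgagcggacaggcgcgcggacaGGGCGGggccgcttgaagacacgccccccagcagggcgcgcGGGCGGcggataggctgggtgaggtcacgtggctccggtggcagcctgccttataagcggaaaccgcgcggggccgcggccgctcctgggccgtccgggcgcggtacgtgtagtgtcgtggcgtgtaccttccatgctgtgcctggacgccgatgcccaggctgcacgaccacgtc

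The Hmgcs1 window held 1 sterol regulatory element, which begins at position -137 relative to the RefSeq start at 119690351, with 4 NF-Y boxes and 3 GC boxes. The Insig1 window held 1 NF-Y box, 3 GC boxes and no match to the sterol regulatory element as spelled here. The window of Idi1 (chr13:8885356-8885655) held 2 NF-Y boxes and 1 GC box, and that of Srebf2 (chr15:82147019-82147318) 1 NF-Y box and 5 GC boxes. Of all 32851 windows of the same length, 1.24% held the sterol regulatory element, 37.4% an NF-Y box and 35.7% a GC box, and among the 14332 windows of tested genes the shares were 1.13%, 37.3% and 60.3%. The matches describe letters in these windows, and no match says only that the letters are not in the window.

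Levels were compared between genes per length, as normalized counts per kilobase of exon, with exons and gene positions from GENCODE vM21 on GRCm38, whose gene starts differ from those of RefSeq. Hmgcs1 (chr13:119690379-119708260, plus strand), which makes HMG-CoA from acetyl units, had the highest level of the 7, with a mean of 917.5 normalized counts per kilobase over 24 mice. Srebf2 (chr15:82147266-82205376, plus strand) followed with a level of 592.8, Insig1 (chr5:28071363-28078662, plus strand) with 319 and Fdft1 (chr14:63145150-63179578, minus strand), which makes squalene from farnesyl units, with 315. Next came Idi1 (chr13:8885501-8892451, plus strand), which turns isoprenoid units into each other, with a level of 235 and Sqle (chr15:59315077-59331192, plus strand), which oxidizes squalene, with 212. Fdps (chr3:89093588-89101959, minus strand), which makes farnesyl diphosphate, was the lowest with 25.5 normalized counts per kilobase. By their means Insig1 and Fdft1, neighbours in this order, changed places between groups, and differences in level between genes were not tested. Insig1 had the higher mean level in control mice (323 ± 21.01 against 309 ± 13.5 normalized counts per kilobase, SD, n = 6) and in mice given both (342 ± 26.7 against 311 ± 20.6), and Fdft1 in duloxetine (326 ± 20.9 against 316 ± 17.6) and *R. flavefaciens* mice (314 ± 18.9 against 297 ± 10.1). Idi1 and Sqle lay within 1 SD of each other in control mice, at 225 ± 12.4 and 221 ± 12.7, and farther apart in the treated groups, at 236 ± 12.2 and 214 ± 9.47 in duloxetine, 240.4 ± 16.8 and 208 ± 14.6 in *R. flavefaciens* and 239 ± 20.2 and 204 ± 17.6 in duloxetine + *R. flavefaciens* mice (SD, n = 6).

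The level of Fdps is uncertain, because 1124 bases of its exons, 26.7% of them, are shared with Gm43738 on the same strand. Fdft1 shares 774 exon bases (18.3%) with Ctsb on the opposite strand, a lysosomal protease gene with a mean of 6295 normalized counts, and the strand setting of the counting is not given in the sources used here. Hmgcs1 shares 557 exon bases with the antisense gene Gm48342, and Idi1 shares 323 with Gm48574. Reads in the bases that Fdft1, Hmgcs1 and Idi1 share with their partners cannot be told apart without strand. For Fdps and Gm43738, on the same strand, knowing the strand would not separate them. For Sqle, Insig1 and Srebf2 no exon base was shared with another annotated gene.

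**Figure D1:**
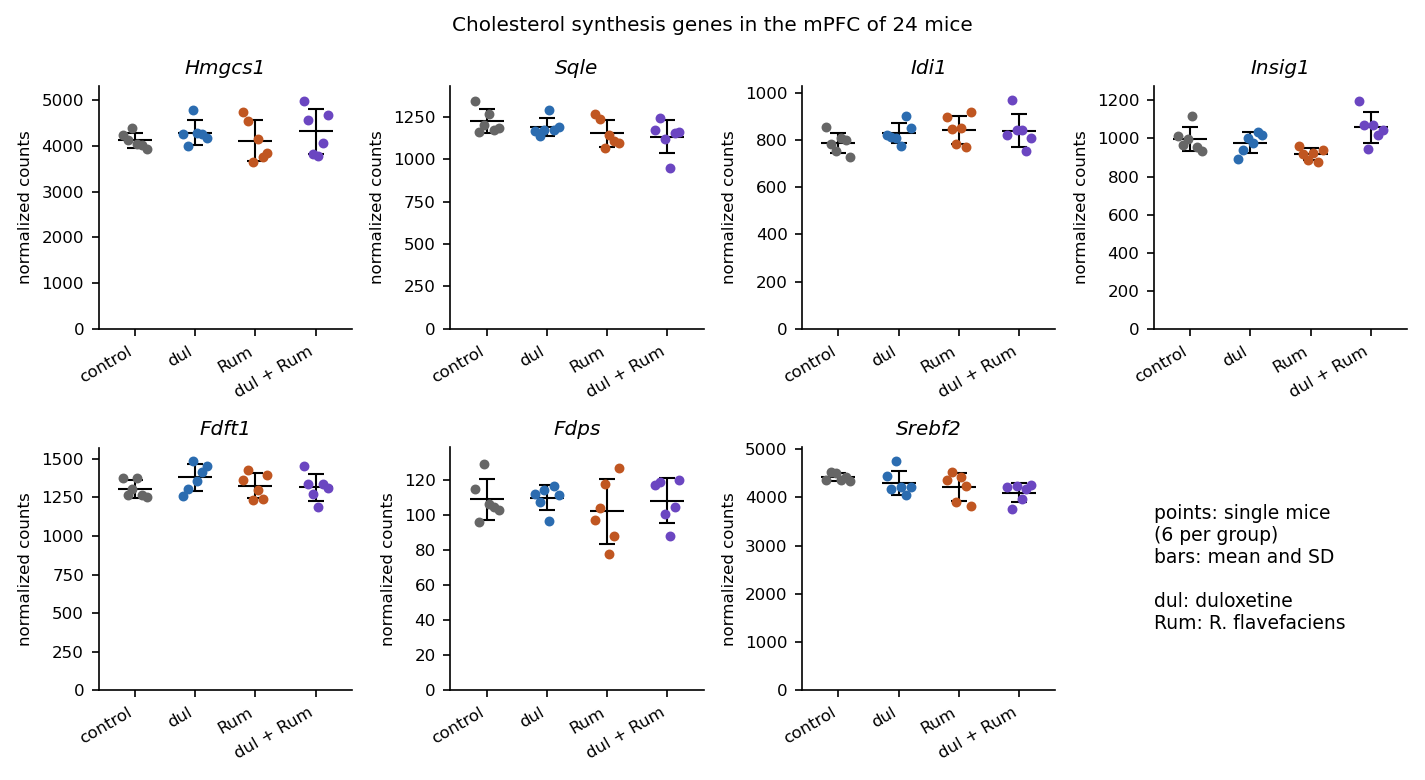
Normalized counts (y axis, from 0) of the 7 genes in each of 24 mice, by group (x axis; dul, duloxetine; Rum, R. flavefaciens). Points are single mice and bars the mean and SD of 6 mice; in Srebf2 the dul + Rum mice lie between 3751 and 4264, below every control mouse, and in all other panels dul + Rum and control mice overlap.

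Among the enzymes, no gene passed the adjusted threshold in any of the 8 comparisons. Hmgcs1 showed in control mice 3930, 4094 and 4389 normalized counts as lowest, median and highest value, and in duloxetine mice 3998, 4265 and 4791. In *R. flavefaciens* mice the values were 3651, 3995 and 4752, and in mice given both 3790, 4320 and 4995. All 4 groups overlapped, and the groups given bacteria spread more widely, with a coefficient of variation of 11.0% and 11.6% against 4.02% in control. The change of Hmgcs1 against control was 0.06 ± 0.07 (log2, SE; limma adjusted p = 1.00) in duloxetine mice, -0.01 ± 0.07 (adjusted p = 0.959) in *R. flavefaciens* mice and 0.06 ± 0.07 (adjusted p = 0.688) in mice given both.

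Sqle, which carries out the first oxygen-dependent step of the pathway, had its lowest mean in mice given both treatments. Its lowest, median and highest normalized counts were 1162, 1195 and 1345 in control, 1139, 1173 and 1291 in duloxetine, 1067, 1127 and 1267 in *R. flavefaciens* and 952, 1157 and 1241 in duloxetine + *R. flavefaciens* mice. The groups overlapped, with 4 of 6 mice given both below every control mouse. Against control the difference in mice given both was -0.11 ± 0.06 (log2, SE), with a limma p of 0.0543, 0.306 after adjustment, and an exact permutation p of 0.0844.

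Idi1 had means of 787 ± 43.5 normalized counts in control, 828 ± 42.6 in duloxetine, 843 ± 59.0 in *R. flavefaciens* and 839 ± 70.9 in duloxetine + *R. flavefaciens* mice (SD, n = 6). Its difference from control was between 0.07 and 0.10 on the log2 scale in the 3 treated groups, and none passed the threshold, with limma adjusted p-values from 0.343 to 1.00. Fdft1 ranged over all mice from 1187 to 1483 normalized counts and Fdps from 77.9 to 130. Their differences from control lay between 0.01 and 0.08 for Fdft1 and between -0.11 and 0.01 for Fdps on the log2 scale, and none passed the threshold. Fdps had the widest spread of the 7, with a coefficient of variation up to 18.0% in *R. flavefaciens* mice.

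Srebf2, the gene of the transcription factor, was the one gene of the 7 with a pair of groups that did not overlap. Its lowest, median and highest normalized counts were 4345, 4402 and 4528 in control mice and 3751, 4191 and 4264 in duloxetine + *R. flavefaciens* mice, so that every mouse given both treatments lay below every control mouse. Duloxetine mice, with 4047, 4216 and 4745, and *R. flavefaciens* mice, with 3828, 4304 and 4523, overlapped with control. Against control, Srebf2 in mice given both differed by -0.11 ± 0.05 (log2, SE), a difference of -7.44% with a 95% interval from -13.3 to -1.14%. Its limma p was 0.0231 and its adjusted p 0.233, which did not pass, while the exact permutation test gave 0.0022, the smallest p that the groupings of 12 mice can give. The permutation test was run for 35 single differences of the 7 genes, its p-values are given unadjusted, and none of the 35 passed 0.05 once adjusted for their number. In the same comparison the 2 groups did not overlap in 2.04% of all tested genes. The control mice varied little in Srebf2, with a coefficient of variation of 1.79%, against 4.90% in mice given both, and the limma fit used a spread shared by all groups.

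The effect of the bacteria on Srebf2 over both drug states was -0.07 ± 0.03 (log2, SE; limma adjusted p = 0.246), and the interaction of the treatments was 0.00 ± 0.07 (adjusted p = 0.995). Neither passed the adjusted threshold.

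Insig1, the gene of the protein that holds SREBP2 back, was the one gene of the 7 past the adjusted threshold, and only between the 2 groups given bacteria. Its lowest, median and highest normalized counts were 879, 919 and 963 in *R. flavefaciens* mice and 947, 1058 and 1199 in duloxetine + *R. flavefaciens* mice. Control mice had 936, 982 and 1117 and duloxetine mice 890, 991 and 1036. The groups given bacteria overlapped at their edges, where 1 mouse given both (947) lay below the highest *R. flavefaciens* mouse (963), and 5 of 6 mice given both lay above every *R. flavefaciens* mouse. Insig1 was higher in duloxetine + *R. flavefaciens* than in *R. flavefaciens* mice by 0.20 ± 0.05 (log2, SE), or 15.1% with a 95% interval from 6.95 to 23.97%. The limma adjusted p was 0.0361, and the exact permutation p was 0.0043.

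This call was close to the threshold. It was lost when only the 2 groups were fitted (limma adjusted p = 0.151, with 0 genes called among all tested), when a trend on transcript length was removed (0.0630), and without the 3 *R. flavefaciens* mice whose profiles stood farthest from the others (0.0573), and it held in 17 of 24 fits that left out 1 mouse. The libraries without which it was lost were *R. flavefaciens* mice 9_1 (adjusted p = 0.0625), 9_2 (0.0587) and 9_3 (0.0522) and duloxetine + *R. flavefaciens* mice 10_2 (0.0750), 11_3 (0.0882), 12_2 (0.0639) and 12_3 (0.0509). The size of the difference in those fits stayed between 0.17 and 0.23 on the log2 scale, and DESeq2 and edgeR on recovered reads gave adjusted p-values of 0.0102 and 0.0340.

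Against control, Insig1 differed by -0.12 ± 0.05 in *R. flavefaciens* mice (log2, SE; limma adjusted p = 0.202, exact permutation p = 0.0108), where 4 of 6 mice lay below every control mouse. It differed by 0.08 ± 0.05 (adjusted p = 0.408) in mice given both and by -0.03 ± 0.05 (adjusted p = 1.00) in duloxetine mice. The interaction, that is, the difference between the effect of duloxetine with bacteria and without them, was 0.23 ± 0.07 for Insig1 (log2, SE), which ranked 68 of 14974 genes by its limma p, and its adjusted p was 0.639. Thus the effect of duloxetine on Insig1 was past the threshold with bacteria and not without them, and the test of that difference did not pass.

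**Figure D2:**
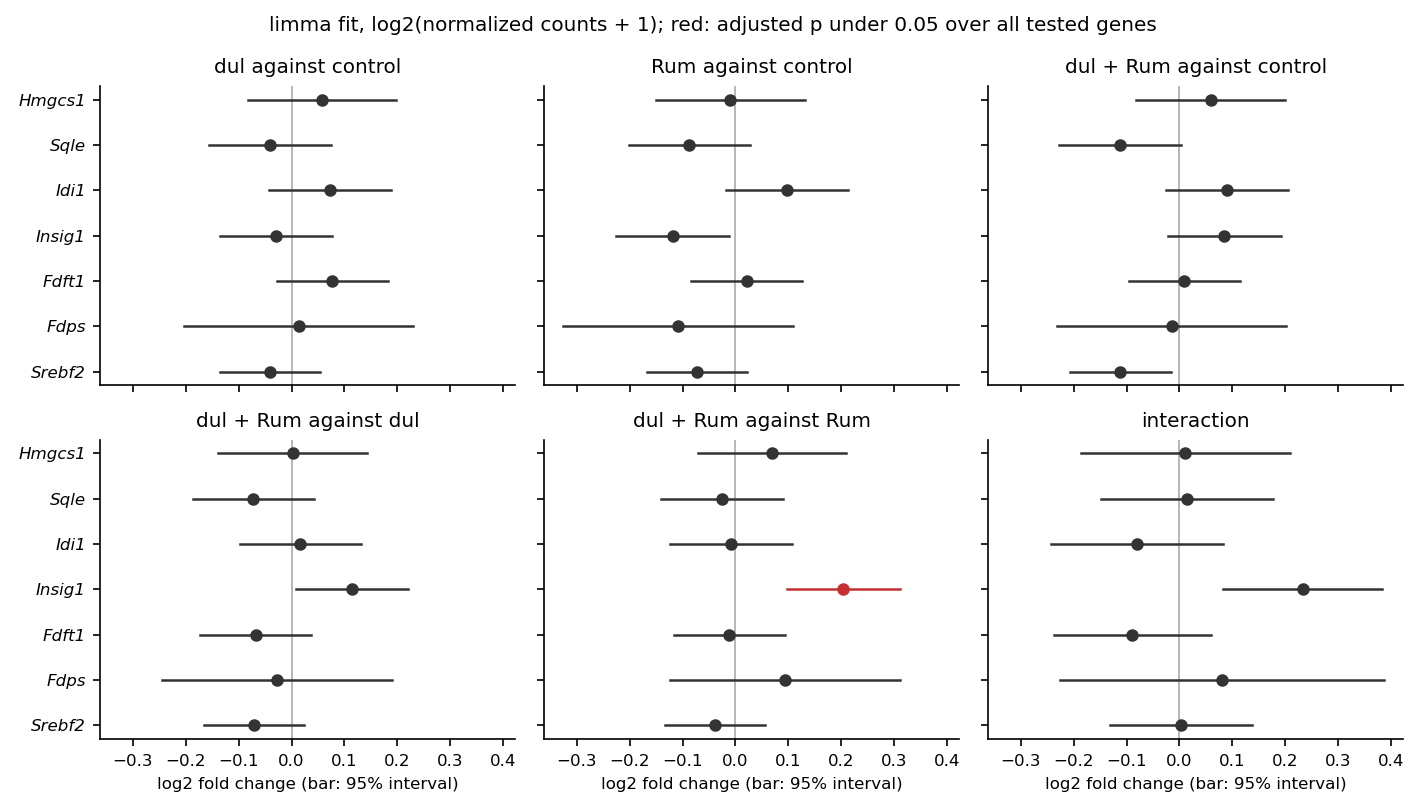
Log2 fold changes (x axis) of the 7 genes (y axis) in the 5 comparisons of groups and the interaction; points are limma estimates over 24 mice and bars 95% intervals (dul, duloxetine; Rum, R. flavefaciens). Insig1 in dul + Rum against Rum, at 0.20, is in red as the value with an adjusted p under 0.05, and the intervals of most other values include 0.

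The counts of the 7 are given beside the share of all tested genes, and no result is read from a count of 0 or 1 of 7 genes. For duloxetine against control, 0 of 7 passed the adjusted threshold, against 0% of all genes, and 0 had an unadjusted limma p under 0.05, against 3.83%. For *R. flavefaciens* against control, 0 passed, against 0.0267%, and 1 (Insig1, lower) had an unadjusted p under 0.05, against 19.6%. For both treatments against control, 0 passed, against 0.1%, and 1 (Srebf2, lower) had an unadjusted p under 0.05, against 16.8%. Between both treatments and duloxetine alone, 0 passed, against 0%, and 1 (Insig1, higher, 0.11 ± 0.05) had an unadjusted p under 0.05, against 5.9%. Between both treatments and *R. flavefaciens* alone, 1 passed (Insig1), against 2.23%, and the same gene had the single unadjusted p under 0.05, against 19.7%. For the interaction the counts were 0, against 0%, and 1 (Insig1), against 7.53%.

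The main effects gave the same kind of count. For duloxetine over both bacterial states, 0 of 7 passed, against 1.03% of all genes, and 1 (Insig1, higher, 0.09 ± 0.04 on the log2 scale) had an unadjusted p under 0.05, against 14.9%. For bacteria over both drug states, 0 passed, against 0.0267%, and 1 (Srebf2, lower) had an unadjusted p under 0.05, against 18.1%. In the comparisons other than both treatments against control, 0 of 7 genes had groups that did not overlap, against 0.334% of all genes for duloxetine and 1.62% for *R. flavefaciens* against control, and 0.254% and 1.44% for both treatments against duloxetine and against *R. flavefaciens*. DESeq2 and edgeR called 0 of the 7 in each comparison but both treatments against *R. flavefaciens*, where each called Insig1. Over all genes, DESeq2 called 1 for duloxetine, 497 for *R. flavefaciens* and 217 for both against control, and edgeR called 0, 4 and 17.

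The intervals give the range of differences that these samples do not exclude. Over the 7 genes, the 95% limits reached from -13.2 to 17.3% for duloxetine, from -20.2 to 15.9% for *R. flavefaciens* and from -14.8 to 15.2% for both against control. Fdps had the widest interval in each, and the upper limits of 15.9 and 15.2% were those of Idi1. The median change of the 7 was 0.01 for duloxetine, -0.07 for *R. flavefaciens* and 0.01 for both against control on the log2 scale, where the median of all tested genes was 0.00 in each. In the order of those comparisons, 4, 2 and 4 of the 7 estimates were above 0. The comparisons share the control mice.

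Within groups, Hmgcs1, Sqle and Fdft1 varied together from mouse to mouse, and so did Insig1 with Fdft1. Correlations were taken over 24 mice on log2 values with the group mean taken off, and they are a description, since all genes of a mouse share its library, depth and tissue piece. Insig1 and Fdft1 had the highest correlation (r = 0.72, Spearman's rho = 0.76), followed by Hmgcs1 with Fdft1 (0.66), Hmgcs1 with Sqle (0.66) and Sqle with Fdft1 (0.62). All 15 pairs without Srebf2 were above 0, with a median r of 0.37 and a range from 0.19 to 0.72. Over all pairs of tested genes the median r was 0.00, and 5% of the pairs lay below -0.49 and 5% above 0.50. Of the 10 pairs of enzyme genes, 3 were above that upper bound, and the 7 pairs with Idi1 or Fdps, from 0.19 to 0.42, were below it.

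The values moved when the 2 mice farthest from the median of the first gene were left out for each pair. Then 14 of the 15 pairs were above 0, Sqle with Fdps fell from 0.19 to 0.00, Hmgcs1 with Insig1 from 0.51 to 0.34 and Insig1 with Fdft1 from 0.72 to 0.64, and the pairs of Hmgcs1, Sqle and Fdft1 lay between 0.53 and 0.62. Without centring on the group means, Insig1 with Fdft1 was at 0.43, below Hmgcs1 with Fdft1 at 0.64.

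Srebf2 went with Hmgcs1 (r = 0.50), was near 0 with Insig1 (-0.09) and was negative with Idi1 (-0.36) and Fdps (-0.31), with a median of 0.05 over 6 pairs. With 2 mice left out in the same way, the values for Srebf2 were 0.47 with Hmgcs1, -0.17 with Insig1, -0.19 with Idi1 and -0.06 with Fdps.

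**Figure D3:**
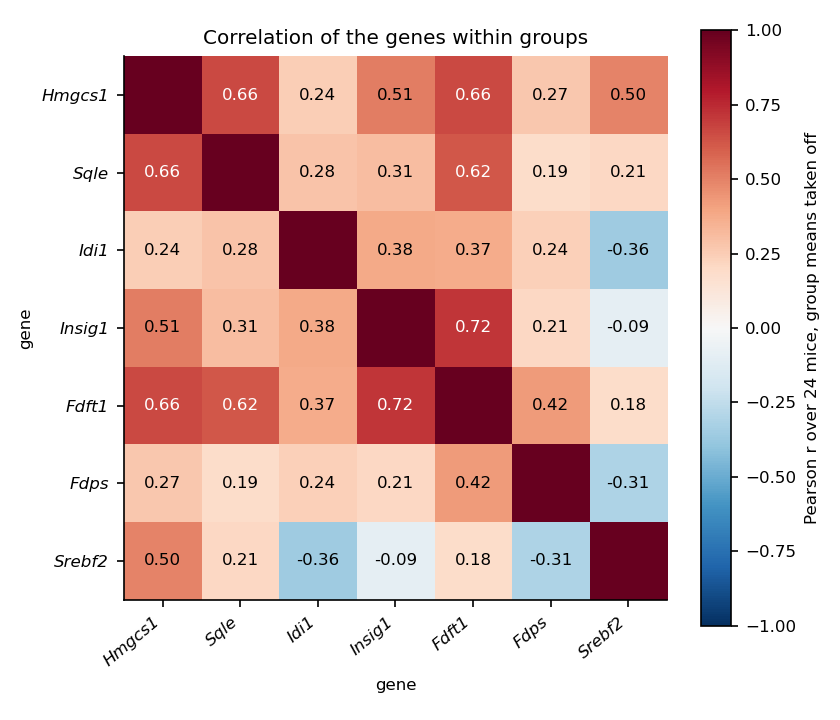
Pearson r (colour and printed value) for each pair of the 7 genes over 24 mice, on log2 values with the group means taken off; both axes list the genes. The block of Hmgcs1, Sqle and Fdft1 lies between 0.62 and 0.66, Insig1 with Fdft1 at 0.72, and Srebf2 with Idi1 and Fdps below 0.

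The mean within-group profile of the 7 genes was highest in mouse 10_2 of the duloxetine + *R. flavefaciens* group, at 1.07 in units of SD, and lowest in mouse 12_2 of the same group, at -1.16. Of the other tested genes, those with the most similar profile over 24 mice were Rasl11b (r = 0.79), Prkaa1 (0.75), Stard4 (0.73), Asb11 (0.72), Wdr1 (0.71), Klhl23 (0.70), Nsdhl (0.70), Fam49b (0.69), Gpc4 (0.68) and Slc30a9 (0.67). Stard4 encodes a carrier of sterols between membranes, Nsdhl an enzyme of the late sterol pathway, and Prkaa1 a catalytic subunit of AMP-activated kinase. The most opposite profiles were those of Jarid2 (-0.75), H13 (-0.74), Cbx7 (-0.73), Fbrsl1 (-0.73) and Zhx2 (-0.72).

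Other genes of the pathway were taken from 4 lists, and their likeness to the 7 genes differed. For 15 other enzymes of cholesterol synthesis the median r with the profile was 0.36, with 11 above 0, against a median of 0.00 over all genes. Nsdhl (0.70), Cyp51 (0.67) and Msmo1 (0.64), which act on lanosterol or on later sterols, had the highest r of that list. Dhcr7 (-0.20) and Ebp (-0.19), which also act on later sterols, had the lowest. For 14 genes of uptake, transport, storage and turnover the median r was -0.24, with 4 above 0. Abca1 (-0.47), an exporter of cholesterol, and Soat1 (-0.45), which esterifies it, were the lowest of that list, and Osbp, at 0.38, the highest. For 9 regulators the median was 0.06, and for 9 fatty acid synthesis genes it was 0.07.

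Between groups, few genes of these lists passed the adjusted threshold. None of the 47 tested genes of the 4 lists passed for duloxetine, for *R. flavefaciens* or for both treatments against control. In that order, 0%, 0.0267% and 0.1% of all tested genes passed. For both treatments against *R. flavefaciens*, where 2.23% of all genes passed (334 genes, and between 47 and 577 when 1 mouse was left out), 2 did, both lower, Ebp among 15 enzymes and Scap among 9 regulators, and these were named after their values were seen. Ebp, the sterol isomerase of the late pathway, had a lowest, median and highest value of 172, 197 and 219 normalized counts in *R. flavefaciens* mice and 149, 155 and 174 in mice given both, which overlapped. It differed by -0.30 ± 0.07 (log2, SE; limma adjusted p = 0.0313), and the call was lost with only the 2 groups fitted (adjusted p = 0.133) and without *R. flavefaciens* mouse 9_1 (0.0661) or 9_2 (0.0579) or duloxetine + *R. flavefaciens* mouse 11_3 (0.0569), 11_4 (0.0583), 12_2 (0.0583) or 12_3 (0.0663). Scap, the escort of SREBP2, had 1200, 1282 and 1361 in *R. flavefaciens* mice and 1100, 1170 and 1190 in mice given both, with no overlap, as in 1.44% of all tested genes. Its difference was -0.14 ± 0.04 (limma adjusted p = 0.0483), and its call was lost in 20 of 24 fits without 1 mouse and in 6 other settings, among them the fit without the 3 *R. flavefaciens* mice (-0.06, adjusted p = 0.368). Of the fits without 1 mouse, those that kept the call of Scap left out *R. flavefaciens* mouse 8_3, 9_1 or 9_2 or duloxetine + *R. flavefaciens* mouse 12_4, and in the others its limma adjusted p lay between 0.0502 and 0.0985.

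The genes named from the lists had the smallest p-values against control, and the following values did not pass the adjusted threshold. For *R. flavefaciens* against control, the enzyme gene Msmo1 differed by 0.15 ± 0.05 (log2, SE), and Mvk and Pmvk, kinases of the mevalonate steps, by 0.15 ± 0.07 and 0.12 ± 0.06. The site-2 protease gene Mbtps2, whose product releases SREBP2, differed by -0.24 ± 0.07, Stard4 by -0.20 ± 0.08 and Nr1h3 by 0.26 ± 0.15. The fatty acid genes Acaca, Fasn and Scd2 differed by -0.17 ± 0.06, -0.10 ± 0.05 and 0.14 ± 0.07. The lipoprotein receptors Lrp1 and Vldlr differed by -0.22 ± 0.07 and -0.15 ± 0.07, and Npc2, which carries cholesterol out of lysosomes, by 0.24 ± 0.09. Their limma adjusted p-values ran from 0.0875 for Mbtps2 to 0.350 for Nr1h3. With DESeq2 Mbtps2 passed (adjusted p = 0.0360), as it did without *R. flavefaciens* mouse 8_3 (limma adjusted p = 0.0485), and Msmo1 passed without mouse 9_2 (0.0342).

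For both treatments against control, Ebp differed by -0.20 ± 0.07, Msmo1 by 0.12 ± 0.05 and Dhcr7 by 0.09 ± 0.06. Scap differed by -0.09 ± 0.04, Mylip by -0.08 ± 0.09 and Srebf1 by 0.09 ± 0.11. Fasn, the fatty acid synthase, differed by -0.15 ± 0.05, and the desaturases Scd1 and Scd2 by 0.24 ± 0.09 and 0.18 ± 0.07. Abca2 differed by -0.14 ± 0.06, Npc2 by 0.19 ± 0.09 and Lrp1 by -0.13 ± 0.07. The limma adjusted p-values of these 12 ran from 0.141 for Fasn to 0.710 for Srebf1. Fasn passed with only the 2 groups fitted (0.0473), without *R. flavefaciens* mouse 9_3 (0.0487) and without the 3 distant mice (0.0259), and Scap with the length trend removed (-0.17, adjusted p = 0.0469).

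For duloxetine against control all adjusted p-values of the lists were 1.00. The named differences were 0.11 ± 0.05 for Msmo1, 0.09 ± 0.06 for Dhcr7 and 0.14 ± 0.09 for Mvd among enzymes, and -0.03 ± 0.04 for Mbtps1, -0.05 ± 0.07 for Insig2 and 0.05 ± 0.11 for Srebf1 among regulators. Scd1, Scd2 and Fads1 differed by 0.15 ± 0.09, 0.10 ± 0.07 and 0.03 ± 0.06, and Abcg1, Cyp27a1 and Cyp46a1 by -0.10 ± 0.06, 0.38 ± 0.27 and -0.04 ± 0.05. Of the 15 other enzymes, 11 were above 0 for duloxetine, 10 for *R. flavefaciens* and 11 for both against control, with medians of 0.07, 0.03 and 0.06 on the log2 scale, where the median of all genes was 0.00 in each. The 3 comparisons share the control mice.

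**Figure D4:**
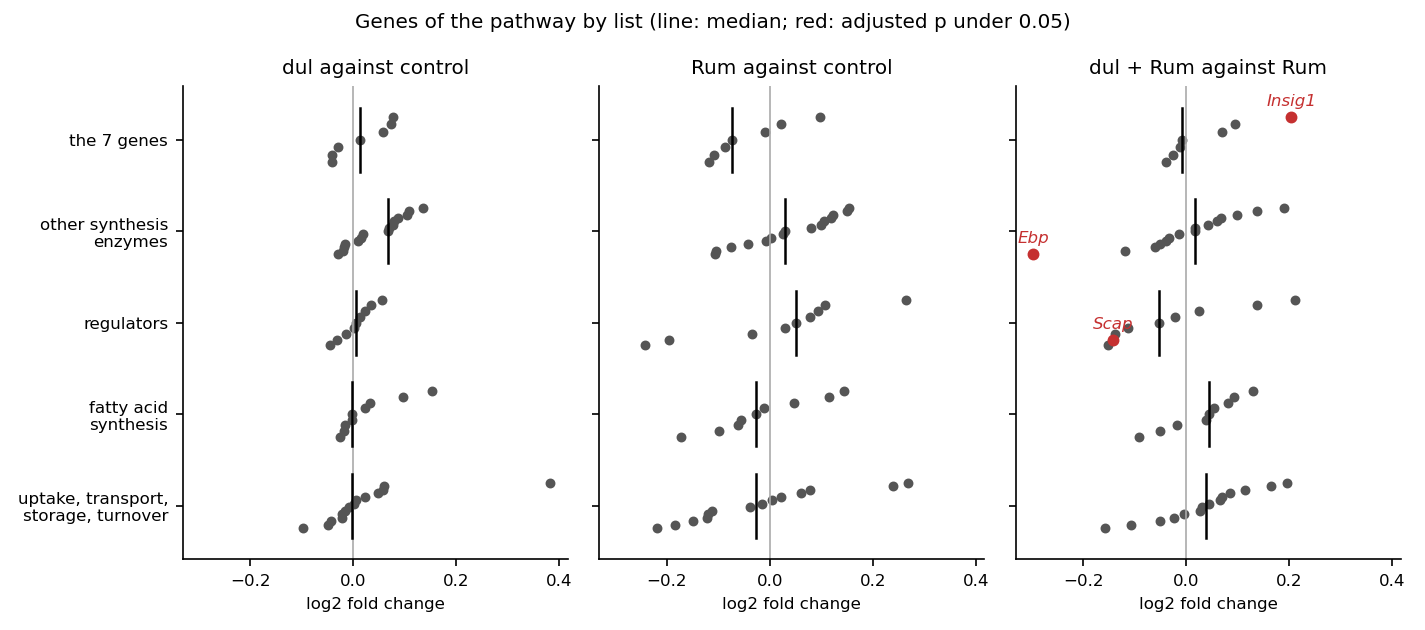
Log2 fold changes (x axis) of the 7 genes and of 4 lists of pathway genes (y axis) in 3 comparisons (dul, duloxetine; Rum, R. flavefaciens); each point is a gene and black lines are list medians. Insig1, Ebp and Scap in dul + Rum against Rum, at 0.20, -0.30 and -0.14, are in red with an adjusted p under 0.05, and no point passes against control.

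The tissue held the markers its label implies, and in bulk tissue fewer cells of a type and less RNA per cell cannot be told apart. All 8 neuron markers and all 7 markers of cortical excitatory neurons were tested and present, led by Snap25 (mean 36093 normalized counts) and Slc17a7 (25094), and the summed cortical list had group medians from 34087 to 36840. Myelin markers, led by Mbp (10868), varied widely within groups, with a summed level from 15744 to 42457 in control mice and from 12915 to 57749 in mice given both. All 12 were tested, and 0 had an unadjusted limma p under 0.05 in the 5 comparisons of groups. The share of all tested genes at that p was 3.83% for duloxetine, 19.6% for *R. flavefaciens* and 16.8% for both against control. It was 5.9% for both against duloxetine and 19.7% for both against *R. flavefaciens*. Within groups over 24 mice, the summed level of each marker list was set beside the mean profile of the 7 genes. The r was -0.47 for oligodendrocyte precursors, -0.38 for endothelial cells, -0.32 for myelin, -0.31 for astrocytes and for choroid plexus, -0.27 for blood, -0.23 for microglia and -0.18 for striatum, and 0.36 for cortical excitatory neurons and 0.33 for neurons. With Insig1 alone the r ran from -0.22 for choroid plexus to 0.23 for neurons, and was 0.03 for myelin. The part of these cells in the shared variation of the 7 genes was not tested.

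Between the groups given bacteria, where Insig1 passed, the marker lists had median changes of -0.02 for myelin, 0.03 for astrocytes, 0.02 for microglia, -0.01 for neurons, 0.02 for cortical excitatory neurons, 0.07 for oligodendrocyte precursors, 0.09 for endothelial cells, -0.02 for blood, -0.24 for striatum and -0.43 for choroid plexus on the log2 scale. The summed astrocyte level had a median of 88984 in *R. flavefaciens* mice and 97257 in mice given both, the striatal sum 1365 and 1493, and the choroid plexus sum 85.5 and 74.8. In *R. flavefaciens* mice the highest striatal and choroid plexus sums, 4720 and 791, put the means of that group at 1983 ± 1376 and 191 ± 296 (SD, n = 6). At an unadjusted limma p under 0.05, 3 of 66 tested markers were higher, the astrocyte genes Slc1a2 (0.26 ± 0.09) and Aqp4 (0.18 ± 0.08) and the neuron gene Map2 (0.28 ± 0.08), and 1 of 66 was lower, the endothelial gene Cldn5 (-0.33 ± 0.13), against 9.76% of all genes higher and 9.9% lower. Of these, Map2 passed the adjusted threshold (limma adjusted p = 0.0485). The part of these cells in the difference of Insig1 was not tested.

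For both treatments against control, where Srebf2 did not overlap, 6 of 7 microglia markers, 4 of 9 astrocyte markers and 5 of 5 blood markers were higher at an unadjusted limma p under 0.05, against 8.08% of all tested genes (8.73% were lower). None of them passed the adjusted threshold. Their median changes were 0.26, 0.17 and 0.78, the most abundant genes were Csf1r (1414 normalized counts), Slc1a2 (50508) and Hbb-bs (313), and no marker was at 0 in all mice. The summed levels had medians of 4325 in control and 4962 in mice given both for microglia, 84690 and 97257 for astrocytes, and 350 and 470 for blood. In addition 3 of 6 endothelial markers and 1 of 3 choroid plexus markers were higher and 1 of 7 cortical markers lower at that p. Against control, *R. flavefaciens* mice had 5 of 7 microglia, 2 of 9 astrocyte and 4 of 5 blood markers higher at that p. Duloxetine mice had 4 of 7, 0 of 9 and 0 of 5 higher, and 0 markers of these lists were lower in either group. In these comparisons Srebf2 overlapped, and 19.6% and 3.83% of all tested genes had that p in either direction. The part of these cells in the difference of Srebf2 was not tested. Striatal markers, led by Ppp1r1b, summed to between 1113 and 4720 in *R. flavefaciens* mice and to between 1368 and 1937 in control, and the 3 tested markers of choroid plexus to between 25.5 and 791 and between 39.2 and 64.2.

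Mice also differed in how far their whole profile stood from the others. The lowest median correlations with the other mice were those of *R. flavefaciens* mice 9_3 (0.984), 8_4 (0.987) and 7_2 (0.988) and of duloxetine + *R. flavefaciens* mouse 12_2 (0.988). Over all genes the median coefficient of variation was 12.4% in *R. flavefaciens*, 10.6% in duloxetine + *R. flavefaciens*, 8.86% in duloxetine and 8.02% in control mice, and over the 7 genes it was 7.00%, 8.45%, 5.81% and 5.53%. The first number of a mouse's label is never shared between treatment groups, so that what it stands for and the treatment cannot be told apart.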

How the data were processed

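The 7 genes, the pathway lists and the marker lists were chosen with earlier results of these data known. The deposited signal values are gene counts that the authors divided by DESeq2 size factors, and these normalized counts were used. Processing notes of the submitters name TopHat2 2.1.0, Bowtie2 2.2.6, DESeq2 1.18.1 and the build mm9, whereas the methods name GRCm38.p5, which the positions in the table match. The table's filter and the read counter are not given in the sources used here.

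Each column consists of whole multiples of a step (at least 99.97% of values within 0.0051), which gave recovered reads. Genes with a mean of at least 10 were tested with limma 3.58.1 (R 4.3.3, trended prior) on log2(value + 1), with all 4 groups in 1 fit, two-sided, Benjamini-Hochberg over all tested genes within each comparison, threshold 0.05. Fold changes are on that scale, which understates low genes. The study's methods used DESeq2 on counts, which here served, as 1.42.0, with edgeR 4.0.16 as an alternative on recovered reads. Exact permutation tests were two-sided. Named pathway genes had the 3 smallest p-values per list against control. The 10 most and 5 least similar profiles were named.

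The alternatives were a pseudocount of 0.1, no filter or a minimum mean of 50, fitting only the groups compared, quantile or 75th percentile scaling, a trend on transcript length taken off by loess (span 0.3), a random block for mice that share the number before the point in their label, an adjusted p under 0.1, and leaving out each mouse. Scripts were tested on simulated data. Figures were drawn with matplotlib 3.10.9.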

Additional observations from a re-analysis of the deposited data

Results flagged for a closer look

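Among 28 sets of 6 mice (7 genes in 4 groups), 2 held a mouse that stood far from the other 5 by Dixon's criterion, which chance meets in about 1 of 20 sets. Both mice were in the duloxetine group. Hmgcs1 reached 4791 normalized counts in mouse 5_4, where the other 5 mice lay between 3998 and 4287. Sqle reached 1291 in mouse 6_1, where the other 5 lay between 1139 and 1191. Neither gene passed the limma threshold in duloxetine against control, nor when single mice were left out.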

How the results depend on the processing

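Of the 7 genes, 0 were called under the alternatives run in each comparison except duloxetine + *R. flavefaciens* against *R. flavefaciens*. There the count fell from 1 to 0 with only the 2 groups fitted, to 0 with the trend on transcript length removed and to 0 without the 3 distant *R. flavefaciens* mice, an alternative chosen after seeing the data, and it ranged from 0 to 1 when single mice were left out. Fitting only 2 groups estimates the spread from the mice of those groups alone, and the cause of these losses was not tested. Insig1 kept its direction in each of these fits, from 0.17 to 0.23 on the log2 scale when single mice were left out.

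Fdps, with 107 normalized counts at a depth of 12811413 to 15607343 recovered reads, was the least precise gene. The values do not exclude differences within its interval. Counting error and spread between mice were not separated. All 103 changes of sign among 3267 recomputed log2 fold changes were in values that were not called and whose size was at most 0.03. Under quantile normalization these became 0.044 for Hmgcs1 with *R. flavefaciens* against control and 0.045 as the main effect of the bacteria, 0.014 for Idi1 and 0.0012 for Fdft1 with both treatments against *R. flavefaciens*, 0.014 for Insig1 and 0.0046 for Fdft1 as main effects of the bacteria, -0.017 for Fdps with duloxetine against control, and -0.0026 for the interaction in Srebf2. Under the 75th percentile the values in the same comparisons were 0.0056 and 0.011 for Hmgcs1, 0.0088 for Idi1, 0.0050 for Fdft1 and 0.012 for Insig1, and that of Fdps with both treatments against control was 0.017. With the length trend removed, Hmgcs1 gave 0.023 with *R. flavefaciens* against control, -0.0016 with both against duloxetine, -0.024 for the interaction and 0.011 for the bacteria. Sqle (interaction), Idi1 (both against duloxetine), Fdft1 (both against control), Fdps (duloxetine against control) and Srebf2 (interaction) gave -0.025, -0.0035, -0.015, -0.0052 and -0.021. For the main effect of the bacteria on Hmgcs1, DESeq2 gave 0.0026 and edgeR 0.00067, and a random block for the first label number gave -0.00089 for Hmgcs1 with both against duloxetine. Without the 3 distant mice the values were 0.0054, -0.0036 and 0.0036 for Hmgcs1 (*R. flavefaciens* against control, interaction, bacteria), 0.028 for Idi1 with both against *R. flavefaciens* and -0.061 for the interaction in Srebf2. For these changes the cause was not tested.

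When single mice were left out, Hmgcs1 ranged from -0.052 to 0.024 with *R. flavefaciens* against control, from -0.042 to 0.038 with both against duloxetine, from -0.032 to 0.054 for the interaction and from -0.026 to 0.014 for the bacteria. Sqle ranged from -0.053 to 0.024 with both against *R. flavefaciens* and from -0.013 to 0.064 for the interaction, and Idi1 from -0.025 to 0.047 with both against duloxetine and from -0.050 to 0.022 against *R. flavefaciens*. Insig1 ranged from -0.047 to 0.0034 with duloxetine against control and from -0.021 to 0.014 for the bacteria, and Fdft1 from -0.019 to 0.039 with both against control and from -0.041 to 0.017 against *R. flavefaciens*. Fdps ranged from -0.021 to 0.063 with duloxetine and from -0.049 to 0.043 with both against control, and from -0.064 to 0.029 with both against duloxetine. The interaction in Srebf2 ranged from -0.025 to 0.031.

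Over all genes, the count called for *R. flavefaciens* against control was 4, but 497 with DESeq2, 221 with the random block (correlation -0.0451) and 0 to 616 without single mice. For both treatments against control it was 15, but 196 with only the 2 groups fitted, 217 with DESeq2, 456 without the 3 distant mice and 5 to 154 without single mice, and for both against *R. flavefaciens* 334, but 610 with DESeq2, 533 with the random block, 0 with only the 2 groups fitted and 47 to 577 without single mice. For duloxetine over both bacterial states it was 154 against 317 with DESeq2, 459 without the 3 mice and 46 to 260 without single mice, and for the bacteria 4 against 361 with DESeq2 and 1 to 135 without single mice. The median correlation among the genes was 0.28, 0.31 on normalized counts and 0.28 without centring. The Hmgcs1 window held the sterol regulatory element with and without N. No paired analysis was possible because no 2 groups share a replicate number.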
